A study of Sus scrofa with 6 samples.

Results

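The miRNAs of the imprinted DLK1-DIO3 domain were followed in small extracellular vesicles (s-EVs) of porcine follicular fluid. The members were picked by name and not by a rule on their values, but with earlier results of these data known. They were ssc-miR-127, ssc-miR-136-5p, ssc-miR-323, ssc-miR-369, ssc-miR-370, ssc-miR-376a-3p, ssc-miR-382, ssc-miR-411, ssc-miR-432-5p and ssc-miR-493-5p, written without the species prefix from here on. Of these 10, 9 were among the 345 miRNAs with a value above 0 in at least 1 library, and 1 was among the 108 that the table lists at 0 throughout. The s-EVs came from fluid of single follicles of prepubertal Landrace × Large White gilts, 6 to 8 months of age, obtained at slaughter and untreated. Follicle diameter was 2 to 6 mm by the sample labels and 3 to 6 mm by the methods. Each fluid was assigned by its oocyte after lissamine green B staining: an unstained oocyte put the fluid in the high-quality group (HQ) and a stained one in the low-quality group (LQ). Fluids were pooled within a group, and each group held 3 libraries, each from s-EVs of 0.5 mL fluid. A pool mixes follicles, so the values say nothing of a single oocyte. The labels call the libraries biological replicates, but the sources used here do not say whether the 3 pools of a group came from different gilts. The p-values therefore speak of these pools and not of gilts.

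Imprinted genes are expressed from the copy of only 1 parent. In the DLK1-DIO3 domain of mammals, the paternal copy expresses the protein-coding genes DLK1 (a Notch-like regulator of growth and adipogenesis), RTL1 (a retrotransposon-derived protein needed in the placenta) and DIO3 (the deiodinase that inactivates thyroid hormone). The maternal copy expresses the long non-coding RNA MEG3 and, downstream of it, long transcripts that carry one of the largest groups of mammalian miRNA genes. The domain is known for its part in fetal growth, the placenta, the brain and muscle, and a change within it causes the callipyge muscle phenotype of sheep. The table holds no information on alleles, so imprinting itself was not measured.

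Positions and sequences were taken from the RefSeq annotation of the pig genome Sscrofa11.1, where 5 of the 10 members matched: miR-127, miR-432-5p, miR-136-5p, miR-493-5p and miR-376a-3p. miR-323, miR-369, miR-370, miR-382 and miR-411 are described by their levels. The annotation splits the domain between the end of chromosome 7 and an unplaced scaffold. DLK1 (121565844 to 121577493) and MEG3 (121656253 to 121660495) lie on chromosome 7, and DIO3 lies on the scaffold. The mature sequences are shown because they identify what each row of the table counts. They run 5′ to 3′, and capitals mark the seed (bases 2 to 8), the stretch that pairs with target mRNAs.
miR-127: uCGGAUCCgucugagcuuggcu
miR-432-5p: uCUUGGAGuaggucauugggu
miR-136-5p: aCUCCAUUuguuuugaugaugga
miR-493-5p: uUGUACAUgguaggcuuucauu
miR-376a-3p: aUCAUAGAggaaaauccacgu
No seed was shared among these 5, so by this measure they form no family. The other annotated rows of the domain were miR-376a-5p, miR-376c, miR-381-5p, miR-432-3p and miR-493-3p. None of the 10 annotated domain sequences shared its seed with any of the 367 rows of the table that had a sequence.

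All of the annotated domain miRNAs lie on the forward strand of their piece. miR-493-5p (chr7:121697847-121697868) lies between genes, and its hairpin starts 120343 bases after DLK1. miR-127 (chr7:121709688-121709709) is the 3p arm of its hairpin and lies, on the opposite strand, within the coding exon of RTL1. miR-432-5p (chr7:121711143-121711163) and miR-136-5p (chr7:121711342-121711364) also lie opposite the RTL1 coding exon, and on the same strand within an intron of the long non-coding RNA gene LOC106504559. In mouse, miR-127 and miR-136 arise from the RTL1 antisense transcript and match RTL1 mRNA in full. The hairpins of miR-127 and miR-432 are 1421 bases apart and those of miR-432 and miR-136 only 111 bases apart. miR-376a-3p lies on the scaffold at bases 46380 to 46400, and its hairpin is 1018 bases from the miR-376c hairpin before it and 3613 bases from the miR-381 hairpin after it. In human and mouse, miR-376a belongs to the large cluster at the DIO3 side of the domain, as do miR-323, miR-369, miR-382 and miR-411, and its precursor is a known substrate of A-to-I RNA editing. miR-370 lies between the RTL1 antisense group and that cluster.

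**Figure D1:**
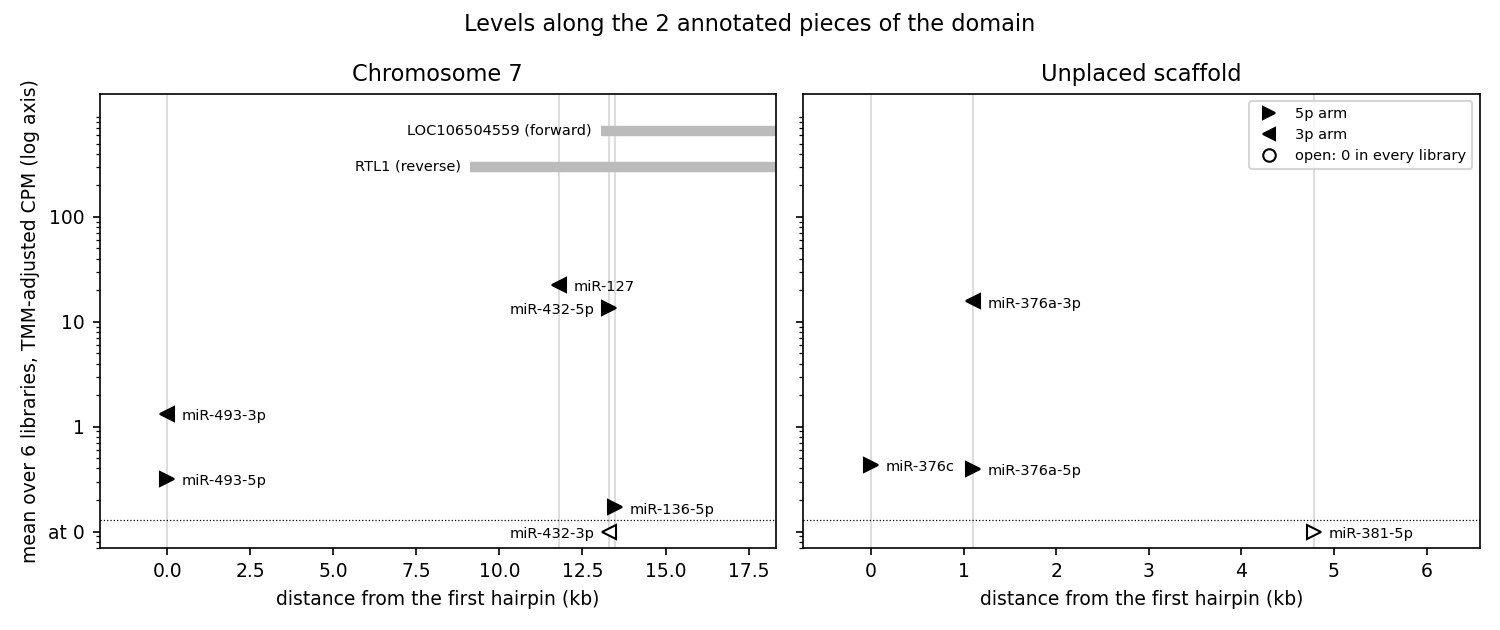
Mean level over 6 libraries (TMM-adjusted CPM, log axis) of the annotated domain miRNAs against distance (kb) from the first hairpin of each piece. Triangles point to the arm, grey bars are genes (both run on beyond the panel), open symbols under the dotted line were at 0 in every library, and the arms of a hairpin differed in level, as miR-376a-3p and miR-376a-5p did. miR-136-3p, the abundant arm of the miR-136 hairpin (mean 18.3 CPM in HQ), has no annotated sequence and is not drawn.

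Levels are read counts scaled to library size and adjusted by the trimmed mean of M-values (TMM-adjusted CPM), and values of a group are given in the order of its replicates 1, 2 and 3. Within each library every value was a whole multiple of a smallest step, which ran from 0.341 CPM in LQ replicate 3 to 1.23 CPM in LQ replicate 1. With 1 step taken as 1 read, the libraries held 898530 (LQ replicate 1) to 3159116 (LQ replicate 3) miRNA reads. On that reading 3 reads are worth 1.02 to 3.68 CPM, and the 10 members together gave 124 to 620 reads per library. Of the 10 members, 7 had a mean above 1 CPM in either group and entered the tests, among 309 miRNAs tested. miR-411 was at 0 in all 6 libraries. miR-136-5p was seen in LQ replicate 3 only (1.02 CPM, 3 reads), and miR-493-5p in HQ replicate 3 (0.571 CPM, 1 read) and LQ replicate 2 (1.32 CPM, 3 reads). These 3 members were at or under what 3 reads allow, so no difference between the groups was detectable at this depth.

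The domain was a minor part of the s-EV miRNAs. All 22 domain rows of the table made up 0.0753% to 0.0867% of the miRNA signal of a library. The 10 members summed to 183, 196 and 174 CPM in the HQ libraries and to 152, 186 and 211 CPM in the LQ libraries, or 0.0138% to 0.0214% of all miRNA signal in a library. The means were 184 ± 10.9 CPM (SD, n = 3) in HQ and 183 ± 29.5 CPM in LQ, a gap of 1.08 CPM that is far smaller than either SD. With libraries scaled to equal sums they were 197 ± 14.8 and 171 ± 30.01 CPM. No member had a mean above the median of the tested miRNAs, 64.9 CPM. In bulk s-EV samples, fewer vesicles of a source and less of a miRNA per vesicle cannot be told apart.

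The members fell into an abundant pair, miR-382 and miR-323, and a lower group. miR-382 carried 31.7% and miR-323 carried 26.9% of the members' summed CPM, followed by miR-127 with 12.3%, miR-376a-3p with 8.50%, miR-369 with 8.34%, miR-432-5p with 7.41% and miR-370 with 4.59%. The mean level of miR-382 was 6.91 times that of miR-370. Neighbours in this order were mostly not separated: miR-382 was above miR-323 in 4 of 6 libraries, miR-376a-3p above miR-369 in 3 and miR-369 above miR-432-5p in 3. miR-323 was above miR-127 in all 6 libraries, although their ranges over libraries met (lowest 30.7 CPM against highest 32.7 CPM). miR-127 exceeded miR-376a-3p in 5 libraries, and miR-432-5p exceeded miR-370 in 5, with the same 12.7 CPM for both in HQ replicate 1. Mature miRNAs have similar lengths, but ligation and amplification differ between sequences, so these are orders of CPM and not of molecules.

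**Figure D2:**
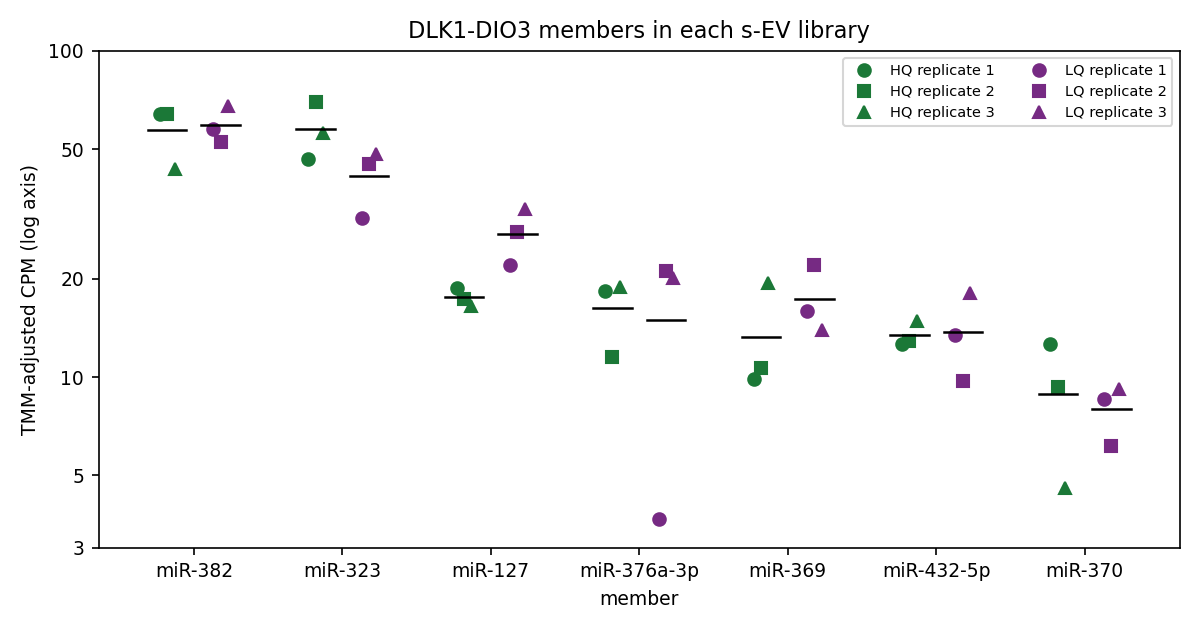
Level (TMM-adjusted CPM, log axis) of each of the 7 tested members in each of the 3 HQ and 3 LQ libraries, with a bar at each group mean. The HQ and LQ points overlap for miR-382, miR-323, miR-376a-3p, miR-369, miR-432-5p and miR-370, and the 3 LQ points of miR-127 (22.1 to 32.7 CPM) sit above its HQ points (16.6 to 18.8 CPM).

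HQ and LQ were compared to see whether domain miRNAs follow oocyte quality. With limma, fitted to log2(CPM + 0.5) and adjusted by Benjamini-Hochberg, an adjusted p under 0.05 was reached by none of the 7 tested members, where 26.5% of all 309 tested miRNAs did. None met the fuller call (that adjusted p, a fold of at least 2 and more than 5 CPM on average in the higher group), which 12.6% of all tested miRNAs met, 16 (5.18%) higher in HQ and 23 (7.44%) higher in LQ. With libraries scaled to equal sums that split was 31 higher in HQ and 12 higher in LQ. None of the 7 reached an unadjusted p under 0.05, against 38.8% of all tested miRNAs. HQ and LQ libraries did not overlap for 1 of 7 members, miR-127, against 43.7% of all tested miRNAs (21.0% higher in HQ and 22.7% higher in LQ). The estimates were positive (higher in HQ) for 4 members and negative for 3, from -0.62 to 0.48, with a median of 0.01 beside 0.08 over all tested miRNAs. The median standard error of the members was 0.36 log2 units, above the 0.29 of all tested miRNAs. In limma these errors, and the p-values, combine a miRNA's own spread between the pools with that of other tested miRNAs of similar level. All 7 of the 95% intervals included 0, and those of miR-382, miR-432-5p and miR-370 lay within 2-fold in either direction. For the other 4 members a 2-fold difference in 1 direction was not excluded by the interval.

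**Figure D3:**
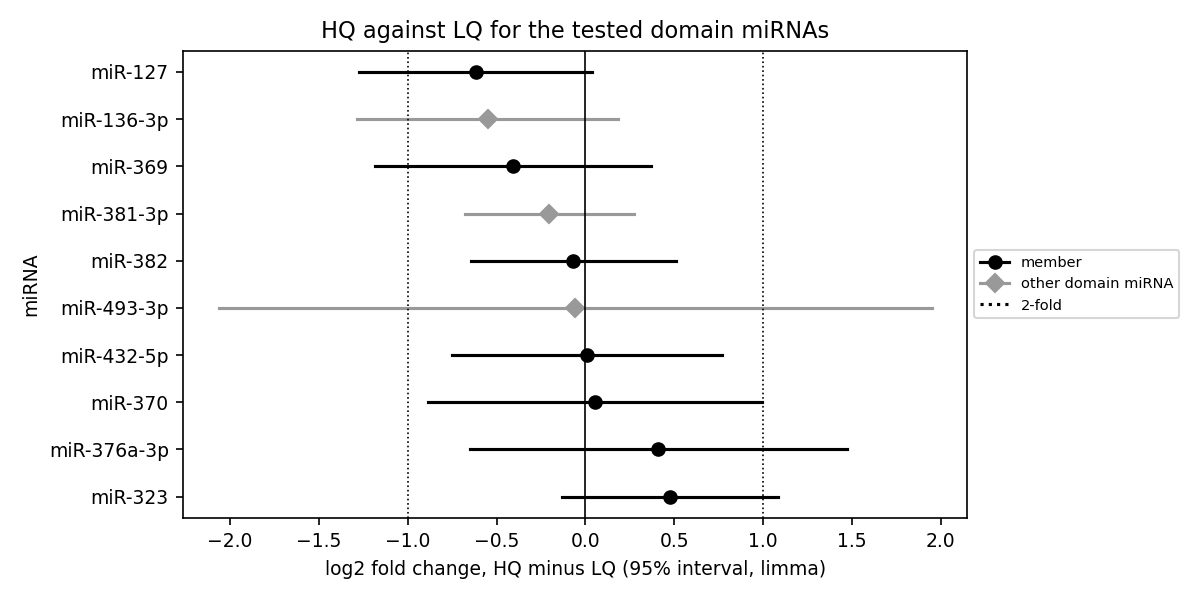
Log2 fold change (HQ minus LQ) with its 95% interval from limma for the 7 tested members (black circles) and 3 other tested domain miRNAs (grey diamonds). Dotted lines mark 2-fold, every interval crosses 0, and miR-127 at -0.62 and miR-323 at 0.48 are the outermost points.

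Among the tested members of the RTL1 antisense group, miR-127 had the larger estimate, with higher values in LQ, but its 95% interval included 0. miR-127, known in mouse to repress RTL1, was at 18.8, 17.3 and 16.6 CPM in HQ and at 22.1, 27.8 and 32.7 CPM in LQ. Every LQ library was above every HQ library. The means were 17.6 ± 1.13 CPM (SD, n = 3) in HQ and 27.5 ± 5.30 CPM in LQ. The log2 difference was -0.62 (SE 0.31, 95% interval -1.27 to 0.04), and the adjusted p from limma was 0.146. Without the intensity trend in the variance, the SE was 0.23 and the adjusted p 0.108 in limma. The values rest on 40, 39 and 29 reads in HQ and 18, 63 and 96 reads in LQ. The exact Poisson interval of LQ replicate 1, for counting error only, was 13.1 to 34.9 CPM and covered every HQ value. GC content is 59.1% in the miR-127 sequence. With log2 values corrected for it over the 256 tested miRNAs with a sequence, the difference was -1.01 and the adjusted p 0.0236 in limma. With equal library sums, and without that correction, they were -0.43 and 0.324. Over the 15 alternatives the adjusted p of miR-127 ran from 0.0141 to 0.450. Marker miRNAs of other cells differed between the groups in both directions. Erythrocyte miR-486 and gonadal miR-202-3p, given below, reached an adjusted p under 0.05 toward HQ in limma. Over all 309 tested miRNAs, 14.9% reached an adjusted p under 0.05 toward LQ in limma and 11.7% toward HQ. An adjusted p under 0.05 toward LQ was reached by 3 of the 4 muscle miRNAs (miR-133a-3p, miR-133b and miR-206, with miR-1 at an adjusted p of 0.121 in limma), by 1 of the 4 leukocyte miRNAs (miR-142-5p, with means of 32.0 CPM in HQ and 87.0 CPM in LQ) and by 1 arm of endothelial miR-126 (the 5p arm, 718 and 1587 CPM). The other arm, miR-126-3p, was at 277 and 312 CPM (adjusted p 0.640 in limma), miR-142-3p at 29.7 and 32.8 CPM and miR-150 at 16.0 and 15.8 CPM. The summed levels of the lists, in HQ and then in LQ libraries, ran from 56.5 to 64.3 and 147 to 230 CPM for muscle, from 134.1 to 142.8 and 172 to 273 CPM for leukocytes and from 874 to 1062 and 1619 to 2149 CPM for endothelium, with none of these miRNAs at 0 in every library. Their part in the values of miR-127 was not tested.

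miR-432-5p, whose hairpin lies in the same antisense stretch, was nearly level between the groups. It was at 12.7, 12.9 and 14.8 CPM in HQ and at 13.5, 9.70 and 18.1 CPM in LQ. The LQ libraries held both the lowest and the highest value. The log2 difference was 0.01 (SE 0.36, 95% interval -0.75 to 0.77, adjusted p 0.985 in limma), and the value rests on 168 reads over the 6 libraries. Of the 10 annotated domain sequences, miR-432-5p alone held the letters GGAG, a motif that in human T cells has been tied to sorting into s-EVs through hnRNPA2B1. The match overlaps its seed, the search was of the mature strand only, and 12.0% of the 367 sequences of the table held the same letters. miR-136-5p, the neighbour of miR-432, was at 0 in 5 of 6 libraries.

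miR-370 had the lowest level of the tested members. It was at 12.7, 9.34 and 4.57 CPM in HQ and at 8.60, 6.17 and 9.20 CPM in LQ. The HQ libraries spanned the whole LQ range. The log2 difference was 0.05 (SE 0.45, 95% interval -0.89 to 0.99, adjusted p 0.943 in limma), from 104 reads in all.

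In the large cluster, miR-382 was nearly level between the groups. Its values were 63.8, 64.0 and 43.4 CPM in HQ and 57.7, 52.5 and 67.8 CPM in LQ. HQ replicate 3 was the lowest library and LQ replicate 3 the highest. The means of 57.1 ± 11.9 CPM (SD, n = 3) and 59.3 ± 7.77 CPM gave a log2 difference of -0.07 (SE 0.28, 95% interval -0.65 to 0.51, adjusted p 0.889 in limma), which turned to 0.13 with libraries scaled to equal sums. It is the best covered member, with 721 reads.

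miR-323 had the largest difference toward HQ. It was at 46.5, 69.8 and 55.9 CPM in HQ and at 30.7, 45.0 and 48.4 CPM in LQ. The highest LQ library was above the lowest HQ library, and all other HQ values were above the LQ ones. The means were 57.4 ± 11.8 CPM (SD, n = 3) and 41.4 ± 9.37 CPM. The log2 difference was 0.48 (SE 0.29, 95% interval -0.13 to 1.08), and the adjusted p from limma was 0.229. Without LQ replicate 1, the library with fewest reads, the difference was 0.28 (adjusted p 0.474). With libraries scaled to equal sums it was 0.67 (adjusted p 0.0926 in limma).

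miR-376a-3p had the largest standard error of the 7 tested members, and a single library decided its direction. It was at 18.3, 11.6 and 18.8 CPM in HQ and at 3.68, 21.2 and 20.1 CPM in LQ. LQ replicate 1 was below every other library, while LQ replicates 2 and 3 were above every HQ library. The low value is 3 reads, with an exact Poisson interval of 0.760 to 10.8 CPM, which covers counting error only. The interval of the next lowest library, HQ replicate 2, was 7.55 to 16.9 CPM and overlapped it. The log2 difference was 0.41 (SE 0.51, 95% interval -0.65 to 1.47, adjusted p 0.597 in limma), and it reversed to -0.37 (adjusted p 0.441) without LQ replicate 1. In the mouse ovary, miR-376a has been linked to the assembly of primordial follicles.

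miR-369, of which 1 arm in human cells has been described to act on AU-rich elements of mRNAs, was at 9.86, 10.7 and 19.4 CPM in HQ and at 16.0, 22.1 and 14.0 CPM in LQ. HQ replicate 3 lay among the LQ values and the other HQ libraries below them. The means were 13.3 ± 5.29 CPM (SD, n = 3) and 17.3 ± 4.21 CPM. The log2 difference was -0.41 (SE 0.37, 95% interval -1.19 to 0.37, adjusted p 0.433 in limma). Without HQ replicate 3 it was -0.70 (adjusted p 0.175), and without HQ replicate 1 or LQ replicate 2 it was -0.23 or -0.22. The table gives no arm for miR-369, as for miR-323, miR-370 and miR-382.

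The deviations of the members from their own means differed in sign within each of the 6 libraries. In LQ replicate 1, miR-376a-3p and miR-323 were far below their own means while miR-382, miR-127, miR-432-5p, miR-369 and miR-370 were at or slightly above theirs. In HQ replicate 3, miR-382, miR-127 and miR-370 were below their means and miR-376a-3p, miR-369, miR-323 and miR-432-5p above them. The mean centred profile of the 6 members with at least 10 CPM, on the log2(CPM + 0.5) scale, was -0.06, -0.06 and 0.07 in the HQ libraries and -0.37, 0.14 and 0.28 in the LQ libraries. Among 224 tested miRNAs outside the domain with at least 10 CPM, miR-542-5p (root mean square difference 0.0917 log2 units over 6 libraries), miR-421-3p (0.128) and let-7g (0.156) had the most similar profiles. The median of the 224 was 0.450, and the 6 members themselves were 0.294 to 0.658 from their own mean profile. This is a description over 6 shared libraries, and the members' mean in LQ replicate 1 leans on the 3 reads of miR-376a-3p, which deviated there by -1.76 from its own mean.

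**Figure D4:**
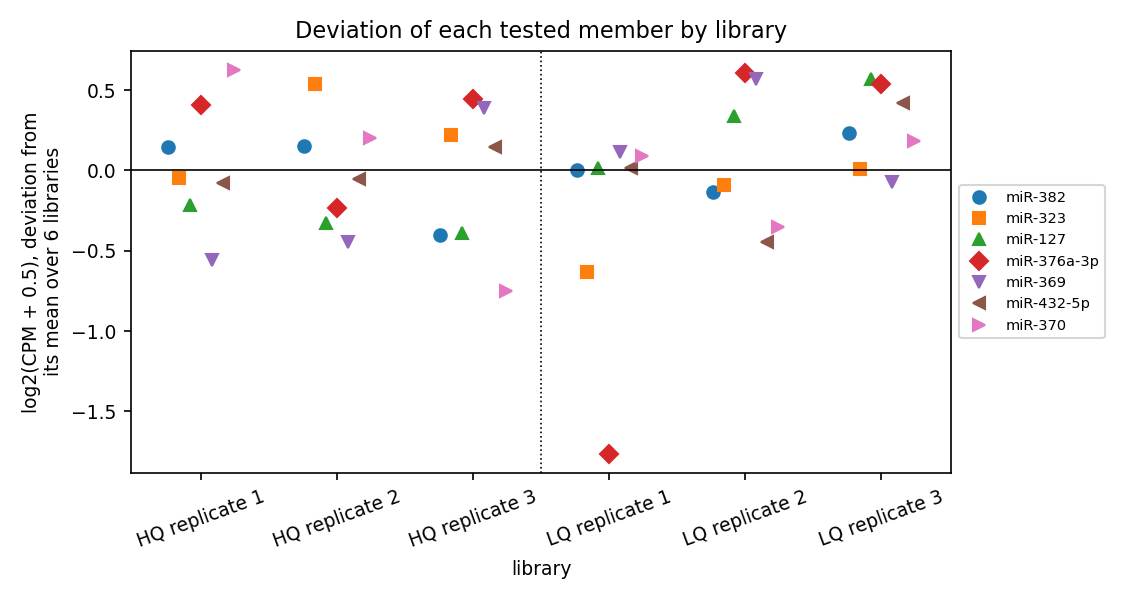
Deviation of each of the 7 tested members from its own mean over 6 libraries (log2(CPM + 0.5)) in each library, 1 marker shape per miRNA. In LQ replicate 1 miR-376a-3p lies far below the others, miR-323 is the next lowest and the other 5 members lie close to 0.

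A hairpin gives a 5p and a 3p mature strand, of which usually one is kept. For 4 members both arms were rows of the table, which allowed a comparison within a single precursor. The hairpins of miR-432 and miR-376a are shown, with the mature arms in capitals, because their dominant arms lie on opposite sides of the loop.
MIR432: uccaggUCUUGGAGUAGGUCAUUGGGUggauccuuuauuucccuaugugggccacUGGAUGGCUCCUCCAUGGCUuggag
MIR376A: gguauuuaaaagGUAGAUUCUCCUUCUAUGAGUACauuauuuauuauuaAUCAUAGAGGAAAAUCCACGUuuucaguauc
The 5p arm of miR-432 had 168 reads over the 6 libraries and its 3p arm 0. For miR-376a the 5p arm had 5 reads and the 3p arm 208. For miR-136 the member arm was the rare one, with 3 reads for 5p and 294 for 3p. For miR-493 both arms were rare, with 4 reads for 5p and 13 for 3p. The mean log2 ratio of 5p to 3p was -5.21 in HQ and -5.22 in LQ for miR-136 and -4.32 and -4.21 for miR-376a, so the 3p arm was the more abundant in both groups. For miR-432 only the 5p arm was seen in either group, and its ratio adds nothing to the level of miR-432-5p. For miR-493 the ratio was -1.13 and -0.93, but LQ replicate 2 had 3 reads of 5p and 0 of 3p, and without LQ replicate 1 the LQ mean turned to 0.13, so no preferred arm can be given for LQ at this depth. The differences of -0.11 and 0.01 for miR-376a and miR-136 gave p = 0.9 each, and -0.20 for miR-493 gave p = 1.0, in an exact two-sided permutation test (all 1.0 after Benjamini-Hochberg adjustment over the 4 hairpins). With 3 against 3 libraries that test cannot go below 0.1, so it does not show that the ratios were alike, and with the rare arm near 0 the ratios depend on the added 0.5 CPM.

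**Figure D5:**
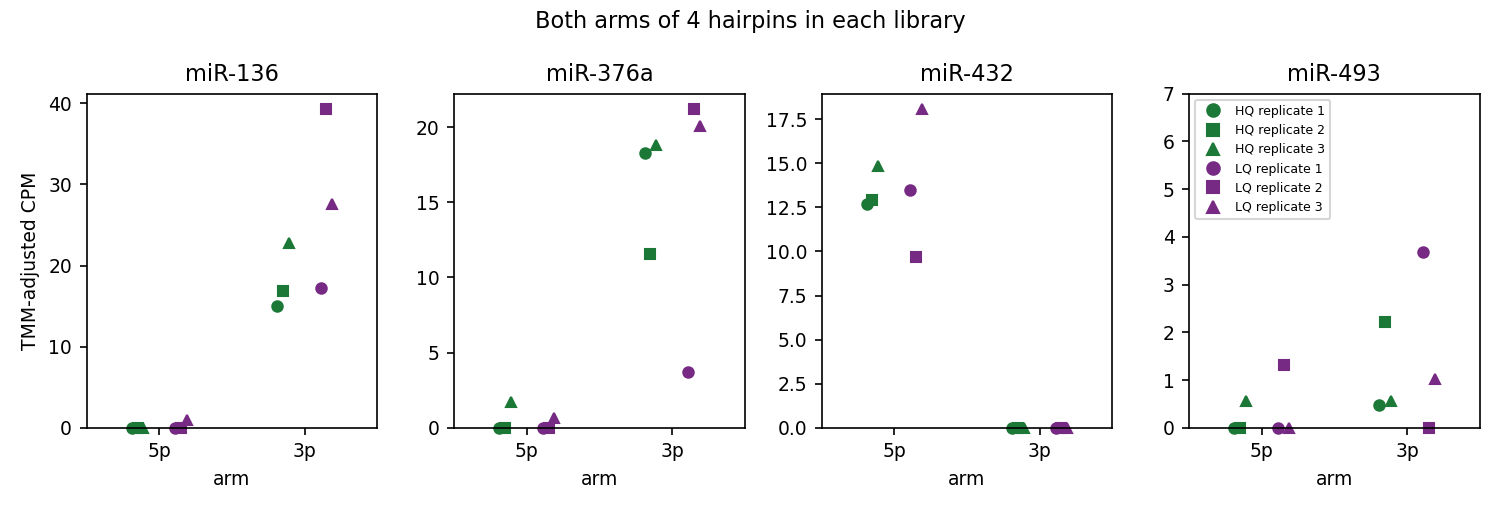
Level of the 5p and the 3p arm (TMM-adjusted CPM, a linear axis with its own scale in each panel) in each HQ and LQ library for the 4 hairpins with both arms in the table. The 3p arm is the abundant one for miR-136 and miR-376a and the 5p arm for miR-432, in both groups.

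Another 12 rows of the table are named for miRNAs of the domain. Of these, 3 were tested, none passed an adjusted p under 0.05 or an unadjusted p under 0.05, and all 3 estimates were negative (that of miR-493-3p turned positive with equal library sums or a pseudocount of 0.1 CPM), with a median of -0.20 beside 0.08 over all tested miRNAs. The most abundant was miR-381-3p, a miRNA of the large cluster, at 591, 474 and 614 CPM in HQ and 696, 609 and 620 CPM in LQ. It alone carried 68.8% to 80.1% of the domain's summed CPM and was 10.3 times as abundant as miR-382. HQ replicate 2 was the lowest library, and the groups overlapped. The means of 560 ± 75.4 CPM (SD, n = 3) and 642 ± 47.8 CPM gave a log2 difference of -0.20 and an adjusted p of 0.545 in limma. With libraries scaled to equal sums these were -0.006 and 0.985.

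miR-136-3p, the abundant arm of a member hairpin and a neighbour of miR-127, was at 15.02, 16.9 and 22.8 CPM in HQ and 17.2, 39.3 and 27.6 CPM in LQ. LQ replicates 2 and 3 were above every HQ library and LQ replicate 1 was not. Its log2 difference was -0.55 (95% interval -1.28 to 0.18, adjusted p 0.252 in limma), -0.86 (adjusted p 0.0558) without LQ replicate 1 and -0.27 (adjusted p 0.664) without LQ replicate 2. With equal library sums it was -0.36. miR-493-3p was at 0.469, 2.22 and 0.571 CPM in HQ and 3.68, 0 and 1.02 CPM in LQ, with a log2 difference of -0.06 (95% interval -2.06 to 1.95, adjusted p 0.969 in limma). miR-432-3p was at 0 in every library, and miR-376a-5p was seen only in HQ replicate 3 (1.71 CPM) and LQ replicate 3 (0.681 CPM). With all 22 domain rows summed, HQ libraries held 689 to 814 CPM (mean 765 ± 66.8, SD, n = 3) and LQ libraries 835 to 870 CPM (mean 856 ± 18.01). The LQ sums were above the HQ sums, but with libraries scaled to equal sums the order of the means turned (818 ± 59.1 CPM in HQ and 799 ± 10.3 CPM in LQ), and the sum was given no test.

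The libraries carried the gonadal miR-202 in both groups, at 40260 to 89364 CPM in HQ and 61414 to 76637 CPM in LQ for both arms summed. Nearly all of it was miR-202-5p (means of 71448 CPM in HQ and 70526 CPM in LQ, adjusted p 0.877 in limma). The other arm, miR-202-3p, averaged 906 CPM over HQ libraries and 505 CPM over LQ libraries (log2 0.83, adjusted p 0.0287 in limma). The erythrocyte list ran from 99.3 to 152 CPM in HQ and 78.0 to 87.3 CPM in LQ, but its members differed in direction: miR-486, which carried the sum, averaged 126 CPM over HQ libraries and 65.5 CPM over LQ libraries (log2 0.91, adjusted p 0.0158 in limma), and miR-451 at 6.22 and 15.1 CPM (log2 -1.18, adjusted p 0.0403). The neural list ran from 25455 to 37686 CPM in HQ and 20294 to 25523 CPM in LQ, and nearly all of it was miR-128, which many tissues make (means of 31129 and 22444 CPM, adjusted p 0.0847 in limma). The other 4 tested neural miRNAs were all higher in LQ with an adjusted p under 0.05: miR-9 averaged 5.12 CPM over HQ libraries and 64.7 CPM over LQ libraries, miR-9-1 at 1.72 and 94.2 CPM, miR-219b-3p at 2.66 and 8.79 CPM and miR-338 at 0.922 and 7.84 CPM. Of all tested miRNAs, 14.9% reached an adjusted p under 0.05 toward LQ in limma and 11.7% toward HQ. The part of the marker sources in the domain values was not tested.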

How the data were processed

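Small-RNA libraries (QIAseq) were made from s-EVs isolated with Exo-spin from 3 HQ and 3 LQ pools. By the methods, the authors trimmed reads and mapped them to Sscrofa11.1 and miRBase in CLC Genomics Workbench and normalized by TMM. Bowtie2 2.2.2, DESeq2 and bcl2fastq also appear in the submitters' processing notes, with no role given. The sources used do not state whether molecular identifiers were used. The deposited signal values are TMM-adjusted CPM. They are not raw reads, so no count test was run, and values came in whole steps of a size set by the library (within 6.66e-05 of a step).

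The 309 miRNAs averaging over 1 CPM in HQ or in LQ were tested two-sided on log2(CPM + 0.5) with limma 3.58.1 in R 4.3.3, with an intensity trend and Benjamini-Hochberg adjustment over all 309. The script was tested on simulated data. RefSeq sequences matched 347 rows by name and 20 by name without the arm. The alternatives were pseudocounts of 0.1 and 1 CPM, no filter, a filter at 5 CPM, no trend, equal library sums, a replicate block, GC correction (256 of 309 had a sequence), both, and each library left out. The members and lists were chosen with earlier results of these data known. The text names all members, the other tested domain miRNAs, other arms of member hairpins and the 3 miRNAs outside the domain with the most similar profile. miR-376c and miR-381-5p are named for their position, and marker miRNAs with their own values after these were seen.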

Additional observations from a re-analysis of the deposited data

How the results depend on the processing

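No member passed the adjusted p or the fuller call under any of the 13 alternatives without GC correction. Of 97 alternative values of single members, 86 kept their direction and side of the threshold and 9 reversed. With GC correction miR-127 passed (-1.01, adjusted p 0.0236), as it did with the replicate block and GC correction together (-1.01, adjusted p 0.0141). Only 3 of the 7 tested members had a sequence, so that check is void for the set and its member counts were not made. Scaling to equal sums shifted the log2 differences of the tested miRNAs by a median of 0.195. The median difference itself went from 0.08 to 0.25. That scaling turned miR-382 to 0.13 and miR-493-3p to 0.072, and a pseudocount of 0.1 CPM turned miR-493-3p to 0.35. The arm ratio of miR-136 became -0.60 with a pseudocount of 0.1 CPM and -0.15 with equal sums.

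Leaving out 1 library at a time gave log2 differences from -0.16 to 0.12 for miR-382, -0.25 to 0.44 for miR-370, -0.21 to 0.22 for miR-432-5p, -0.37 to 0.82 for miR-376a-3p and -0.84 to 0.70 for miR-493-3p. The arm differences ran from -0.53 to 0.52 for miR-136, -0.72 to 0.46 for miR-376a, -0.21 to 0.22 for miR-432 and -1.26 to 1.202 for miR-493. miR-127 stayed between -0.76 and -0.49, miR-323 between 0.28 and 0.62, miR-369 between -0.70 and -0.22, miR-136-3p between -0.86 and -0.27 and miR-381-3p between -0.27 and -0.09. The cause of these shifts was not tested.

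Over all tested miRNAs, the count with an adjusted p under 0.05 went from 82 to 29 without the trend, and to 29 when HQ replicate 2 was left out, 48 for HQ replicate 1 and 46 for LQ replicate 2, with 29 to 109 over the 6 libraries. Calls higher in HQ and LQ, 16 and 23, were 10 and 14 without the trend, 31 and 12 with equal sums, and 7 to 23 and 15 to 33 with a library left out. Calls higher in LQ were 11 with GC correction and 15 with the block and GC correction. The replicate block gave 97 miRNAs with an adjusted p under 0.05 and 0 members. Same-numbered HQ and LQ libraries did not deviate together (correlations -0.04 to -0.01), so the numbers were not taken as pairs. Depth limits miR-411, miR-136-5p and miR-493-5p, which had at most 3 reads in a library.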
